A study of Danio rerio with 15 samples.

Results

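The effect of 40 µg/L dibromoacetonitrile (DBAN) that females and males share was measured in zebrafish (Danio rerio) brain. All 12 libraries of both sexes at 40 µg/L and in the controls, of 15 in the series, were fitted with an additive model of sex and dose, and the dose term was tested for each gene. The exposed groups were females at 40 µg/L DBAN and males at 40 µg/L DBAN, and their references were unexposed females and unexposed males, each group with 3 libraries of poly(A) RNA from brain taken after 56 days. All fish were kept in aerated filtered water with sea salt, under an alternating light and dark cycle and on live feed. The strain, the age, the number of fish behind a library, the hour of collection and any batch are not stated in the labels. Of 14971 genes in the deposited count table, 13149 had enough counts to be tested. Nothing in the labels says that replicates came from separate fish, and a p-value here reflects library-to-library spread, which may be technical.

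DBAN is a brominated nitrile that can form when water holding bromide and organic nitrogen is disinfected with chlorine. The vertebrate brain keeps daily time with a feedback loop in which Clock and Bmal proteins, the activators, switch on period, cryptochrome and Rev-erb genes whose products then repress the loop. In fish, as in other vertebrates, the pallium and subpallium are the dorsal and ventral parts of the telencephalon, and separate sets of transcription factors mark their excitatory and GABAergic neurons. Immediate early genes and chaperones are induced within minutes to hours of neuronal activity or stress, while ribosomal protein genes are among the most abundantly transcribed genes of any cell.

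Most exposed libraries stood apart from the controls in how their counts were spread over genes. Total counts were 31576124 to 49388334 in the exposed libraries and 18365050 to 42122528 in the controls. Rare genes were defined for each library as those with no count in 10 or more of the remaining 14 libraries of the series, and their median count was 28, 8 and 35 in the exposed females and 39, 40.5 and 132 in the exposed males, against 8, 11 and 8 in the control females and 8, 9 and 8 in the control males. A high rare-gene median shows that a detected rare transcript was counted many times, which is low library complexity. The median rested on 109, 256 and 104 rare genes in the exposed females and 63, 90 and 21 in the exposed males. In the controls it rested on 195 to 599. Exposed female replicate 2 was the single exposed library within the control range, and exposed male replicate 3 was the highest. The difference was 2.0 on the log2 scale (exact permutation test within sex, two-sided p = 0.02, with 0.005 the smallest possible), and within a sex it was 1.16 in females (exact permutation p = 0.4) and 2.83 in males (exact permutation p = 0.1, the smallest possible). Genes at a count of 0 numbered 2095 to 5172 in the exposed libraries and 1435 to 2558 in the controls (exact permutation test, two-sided p = 0.015). The mean difference was 1496 genes, and 562 in females alone (exact permutation p = 0.3). With the genes at 0 divided by the library total, the difference had an exact permutation p of 0.63. That quotient is a rate and not a number of genes. The median total was 40861446.5 in the exposed libraries and 29148615 in the controls, and a larger total lowers the rate. The rate therefore cannot show whether depth accounts for the difference in genes at 0. In males, totals were 31576124 to 48621981 in the exposed libraries and 35666401 to 42122528 in the controls. Their genes at 0 numbered 3123 to 5172 and 1435 to 1831. In females, totals were 33198859 to 49388334 in the exposed libraries and 18365050 to 22630829 in the controls. Their genes at 0 numbered 2095 to 3218 and 2046 to 2558. The part of depth in the difference was not tested. The 100 most abundant genes took 23.4 to 29.1% of counts in the exposed libraries and 19.2 to 22.4% in the controls (exact permutation test, two-sided p = 0.005, the smallest possible). Low complexity went with dose in 5 of the 6 exposed libraries, so the 2 cannot be told apart in this design. The results were set beside 2 further fits: one used the log2 rare-gene median of each library as a further term (the complexity covariate), and the other kept exposed female replicate 2 as the only exposed library, assumed to vary as the controls do. Neuronal markers were abundant in both groups, with snap25a, a synaptic fusion protein, at 1982 to 3095 CPM (counts scaled to the size of the library) in the exposed libraries and 2393 to 4200 CPM in the controls. The glial marker fabp7a had 417 to 729 CPM in the exposed libraries and 555 to 840 CPM in the controls.

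**Figure D1:**
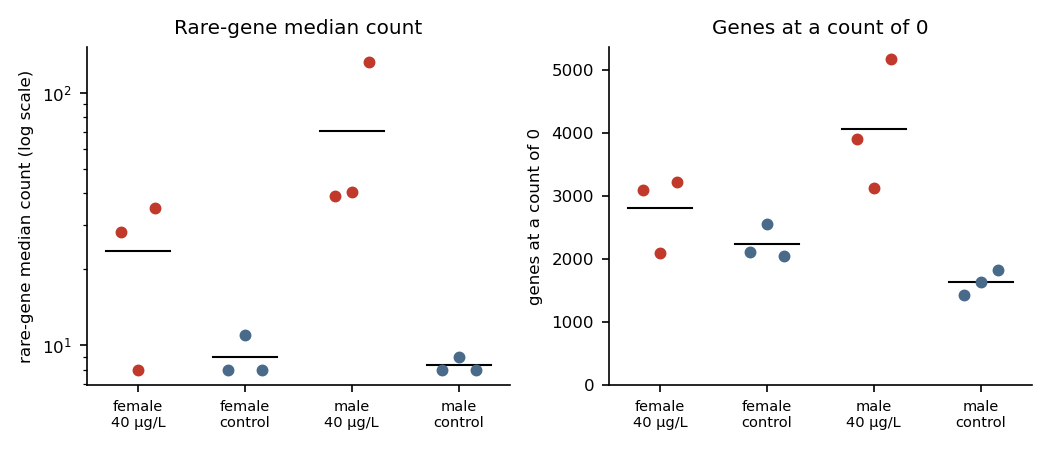
Rare-gene median count (left, log axis) and number of genes at a count of 0 (right) in each library, by sex and dose; points are libraries and bars are means of 3. The exposed libraries reach 132 and 5172, while the controls stay at or below 11 and 2558.

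Exposure at 40 µg/L went with higher levels of 1192 genes and lower levels of 965 genes in the 2 sexes together, at an edgeR adjusted p under 0.05. The 2157 genes called were 16.4% of the genes tested, 9.07% higher and 7.34% lower. The median log2 fold change was 0.89 among the genes called higher, −1.03 among those called lower and −0.15 over all genes tested. The change was at least 2-fold for 467 genes called higher and 508 called lower. All 6 exposed libraries lay on one side of all 6 controls for 902 of the genes called (546 higher, 356 lower), and for 7.90% of all genes tested (4.30% higher, 3.60% lower). Because a library is bulk tissue, fewer cells of a type and less RNA per cell cannot be told apart in any of these values.

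The count depended on which libraries carried it. With the complexity covariate 16 genes passed, 11 higher and 5 lower, of which 13 were among the 2157, and 2120 of the 2157 kept their sign. With exposed female replicate 2 as the only exposed library 17 genes passed, and 1998 of the 2157 kept their sign. Both fits reuse libraries that made the calls, so the kept signs follow largely from the calls. The share of all tested genes that kept their sign was not computed. In exposed female replicate 2, 780 of the 1192 genes called higher lay above all 6 controls and 523 of the 965 called lower lay below them. These shares of 65.4% and 54.2% include the library in the calls themselves, and among all genes tested it lay above the controls at 16.1% and below them at 14.6%. Without control male replicate 1 the count was 1396.

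Genes called higher were mostly abundant genes. With genes split into 5 equal parts by mean CPM, of the most abundant part, 29.9% were called higher and 11.2% lower. Of the middle part, 3.73% were called higher and 9.09% lower, and of the least abundant part 0.038% were called higher and 2.05% lower. The median log2 fold change of all tested genes ran in the same order, at −0.77, −0.34, −0.22, −0.06 and 0.23 from the lowest to the highest. In the least abundant part 50.4% of the values were 0 in the exposed libraries, against 16.7% in the controls. The median genomic span, as listed in the deposited table, was 12554 bases for genes called higher and 16415 bases for genes called lower, beside 14534 bases over all genes with a listed span. The share called on single chromosomes ran from 14.2% to 22%.

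**Figure D2:**
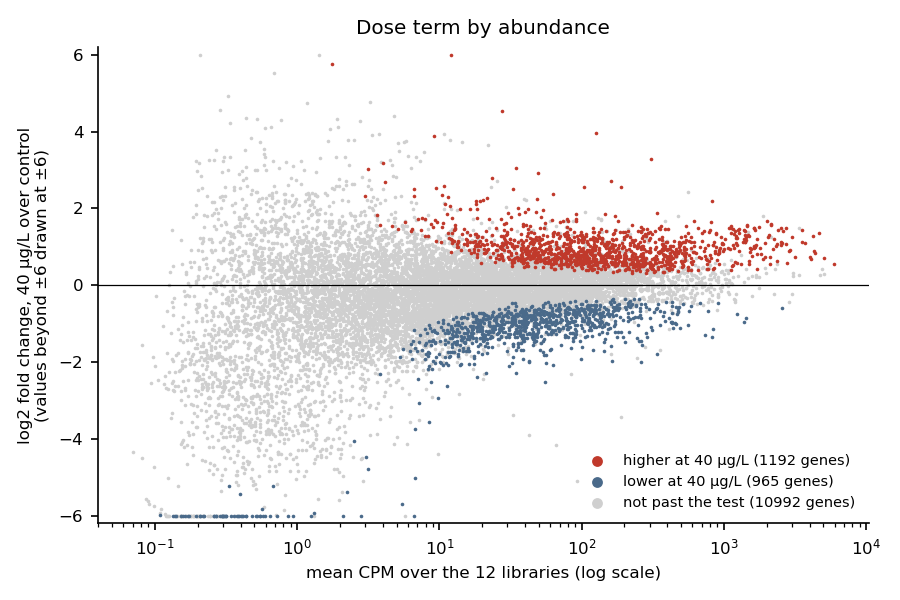
Log2 fold change of the dose term (vertical axis, 40 µg/L over control) against mean CPM over the 12 libraries (log axis), 1 point per tested gene, coloured by call. The 1192 genes called higher crowd to the right, and the least abundant of the 5 parts holds 1 of them.

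Every gene called for the dose term had the same sign in females and in males when the sexes were fitted apart in 1 interaction model, and 66.8% of all tested genes did. A gene with opposite signs would rarely pass an additive test, so the shared sign follows largely from the test. The male change was the larger for 1769 of the 2157 genes and the female change for 388. Genes called higher had a median log2 fold change of 0.63 in females and 1.14 in males, and genes called lower had −0.80 in females and −1.26 in males. Over the 7415 genes at a mean of 10 CPM or more, the female and male log2 fold changes had a Pearson r of 0.51 (0.23 over all genes tested), a description across genes, which are not independent replicates. Of the interaction term, 0 genes passed in edgeR, with a smallest adjusted p of 0.0679. An unadjusted interaction p under 0.05 was found for 1909 of all 13149 genes (14.5%) and for 546 of the 2157 called for dose. For the interaction DESeq2 called 457 genes and limma-voom 0, and without exposed male replicate 2 edgeR called 369. Fitted alone, the females gave 19 genes for the dose term and the males 1947. The rare-gene difference was also larger in males (2.83 on the log2 scale) than in females (1.16). Its part in the larger male changes was not tested.

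**Figure D3:**
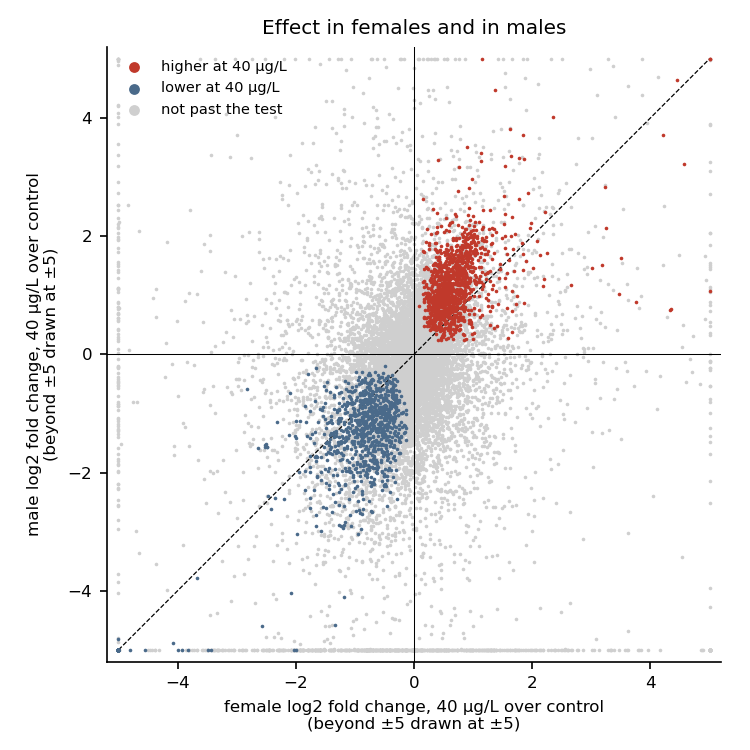
Log2 fold change in females (horizontal axis) and in males (vertical axis), 40 µg/L over control, 1 point per tested gene, coloured by the call of the shared dose term; the dashed line marks equal changes. The genes called, 1192 higher and 965 lower, fill the 2 quadrants of equal sign, and 1769 of them have the larger change in males.

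The smallest p was that of rhobtb4 (chromosome 5, 43427891 to 43509101), a gene whose product has BTB domains. Positions come from the deposited table, which names no genome build, and for 11 of the 156 named genes it gives an alternative contig, where reads can be shared. rhobtb4 had 17.5, 12.6 and 22.2 CPM in the exposed females and 14.6, 18.4 and 13.1 CPM in the exposed males, against 89.5, 89 and 99.7 CPM in the control females and 111, 65.5 and 107 CPM in the control males. Every exposed library was below every control, and the log2 fold change was −2.51 ± 0.19 (standard error, approximate; edgeR adjusted p = 5.47e-05). The fall was −2.58 with the complexity covariate (edgeR adjusted p = 0.0141) and −2.87 with exposed female replicate 2 alone (edgeR adjusted p = 0.0399). Next in order were ciarta and arntl1a, described below with the clock, and braf (chromosome 4, 12072421 to 12102036), a kinase of the MAP kinase cascade. The braf level was 60.8 to 103 CPM (median 81.5) in the exposed libraries, against 177 to 228 CPM (median 184) in the controls, without overlap, and its log2 fold change was −1.21 ± 0.13 (edgeR adjusted p = 0.000738). cct4, a subunit of the chaperonin that folds actin and tubulin, had 450.2 to 695 CPM (median 624) in the exposed libraries, against 224 to 325 CPM (median 286) in the controls and rose by 1.14 ± 0.13 on the log2 scale (edgeR adjusted p = 0.000738). ubap2a, a ubiquitin-associated protein gene, rose by 0.94 ± 0.11 (edgeR adjusted p = 0.000738), with log2 fold changes of 0.94 in females and 0.95 in males. The unnamed gene si:ch211-133n4.4 fell by 1.31 ± 0.15 (edgeR adjusted p = 0.000738). Under the complexity covariate, braf, cct4, ubap2a and si:ch211-133n4.4 kept their direction with edgeR adjusted p of 0.0766, 0.143, 0.11 and 0.145.

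The core clock was among the lists with the largest share of calls. Of 31 repressors and output genes tested, 15 were called lower and 1 higher, beside 7.34% and 9.07% of all genes, and the median log2 fold change was −0.94 (−0.56 in females, −1.05 in males). Their summed level was 4629 to 5337 CPM in the exposed libraries, against 5686 to 7302 CPM in the controls, and the 2 ranges do not overlap. nr1d1 (chromosome 3, 23488621 to 23496220), which encodes the repressor Rev-erb alpha, had 118, 86.2 and 95.9 CPM in the exposed females and 91.5, 62.5 and 137 CPM in the exposed males, against 557, 611 and 531 CPM in the control females and 242, 241 and 348 CPM in the control males. The exposed libraries of both sexes were at a like level, while the controls differed by sex. Its log2 fold change was −2.01 ± 0.23 (edgeR adjusted p = 0.000738). ciarta (chromosome 19, 8928434 to 8940081), a repressor of the Clock and Bmal pair, had 36.5, 24.1 and 24.5 CPM in the exposed females and 21.6, 18.9 and 21.1 CPM in the exposed males, against 118, 82.2 and 104 CPM in the control females and 95.8, 91.1 and 117 CPM in the control males. No exposed library reached the lowest control, and the change was −2.07 ± 0.17 (edgeR adjusted p = 8.36e-05). nr1d2b, the Rev-erb beta gene, had 269.5 to 327 CPM (median 302) in the exposed libraries, against 496 to 710.4 CPM (median 602) in the controls and a log2 fold change of −0.98 ± 0.12. nfil3-6, of the E4BP4 repressor family, had 81.8 to 116 CPM (median 89.9) in the exposed libraries, against 163 to 262 CPM (median 208) in the controls and a log2 fold change of −1.15 ± 0.14 (edgeR adjusted p = 0.000738 for each of the 2). Among the other members called lower were the period genes per1a, per1b and per3, with log2 fold changes of −1.35, −0.96 and −1.18, and the repressor bhlhe41 (−1.41); these 4 were chosen after their values were seen. The member called higher was the cryptochrome cry3b (1.26).

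Of 12 genes tested in the list of clock activators, which also holds cry4, 2 were higher and 1 lower. Calls made up 25% of the list, where 16.4% of all genes were called. The median log2 fold change was −0.18 (0.006 in females, −0.90 in males), with 6 members above 0 and 6 below. arntl1a (chromosome 25, 17893784 to 17918536), which encodes a Bmal protein, had 277, 234 and 278 CPM in the exposed females and 331, 256 and 261 CPM in the exposed males, against 86.8, 110.5 and 118 CPM in the control females and 59.9, 84 and 66.3 CPM in the control males. The lowest exposed library, exposed female replicate 2, was above the highest control, and the log2 fold change was 1.67 ± 0.17 (edgeR adjusted p = 0.000485). cry4, a cryptochrome that in zebrafish does not repress the Clock and Bmal pair, had 194, 124 and 195 CPM in the exposed females and 232, 205 and 206 CPM in the exposed males, against 59.1, 94.7 and 72 CPM in the control females and 59.5, 77 and 76 CPM in the control males. It was higher in every exposed library than in every control (1.39 ± 0.17, edgeR adjusted p = 0.000738). roraa, a retinoid-related orphan receptor, was called lower (−1.21 ± 0.34, edgeR adjusted p = 0.0272), a call lost without exposed male replicates 1 or 2, control female replicate 3 or control male replicates 1 or 3 (edgeR adjusted p 0.0555 to 0.0782). With the complexity covariate the clock repressors called were nr1d1 (−2.76, edgeR adjusted p = 0.003) and ciarta (−1.97, edgeR adjusted p = 0.031). arntl1a had 1.36 there (edgeR adjusted p = 0.055). With exposed female replicate 2 alone, nr1d1 (−2.71) and per1a passed, and ciarta had −2.06 (edgeR adjusted p = 0.0581). The females alone gave −2.50 for nr1d1, −1.84 for ciarta and 1.32 for arntl1a, at edgeR adjusted p of 0.00512, 0.0467 and 0.0467. Leaving out single libraries gave 16 to 18 called clock repressors.

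**Figure D4:**
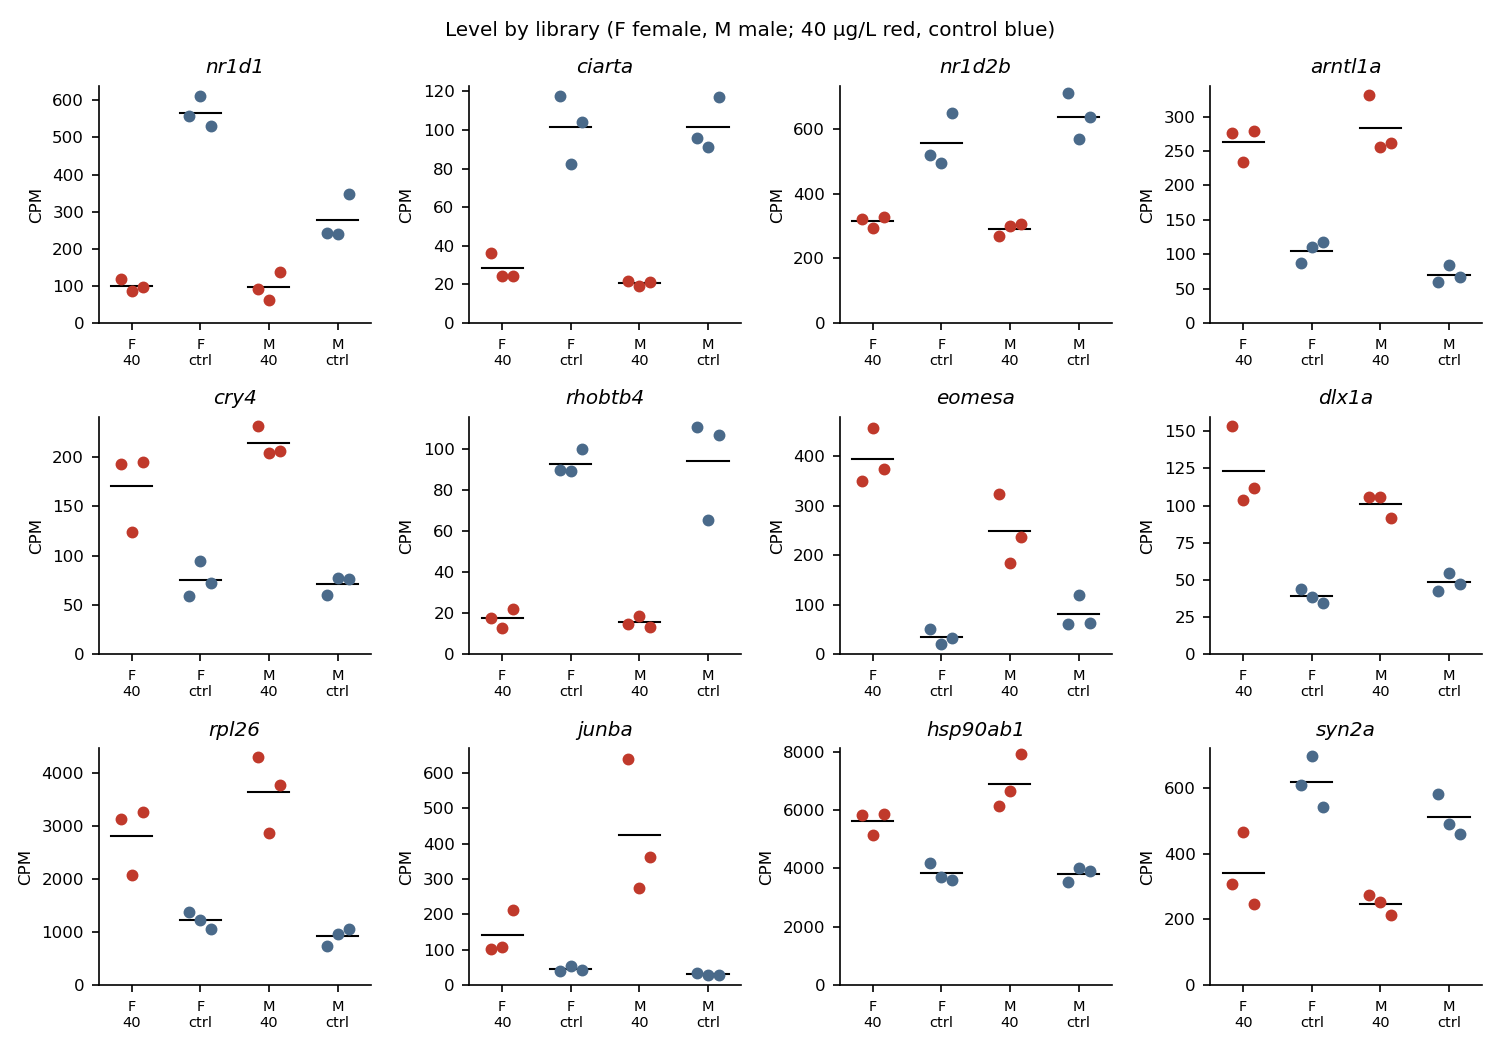
CPM (vertical axes from 0) of 12 named genes in each library, by sex and dose; points are libraries and bars are means of 3. In each panel the 6 exposed libraries lie on one side of the 6 controls, except that the exposed female replicate 2 level of syn2a (465) is above the lowest control (461).

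Some transcription factors of the telencephalon were higher at 40 µg/L, and most did not pass. Of 17 pallial factors tested, 5 were called higher and 0 lower, and 6 of the 17 were below 0. The median log2 fold change was 0.14 (0.84 in females, 0.27 in males). Of 20 subpallial factors, 6 were higher and 0 lower, with a median of 0.90 (1.33 in females, 0.39 in males). The called shares were 29.4% of the pallial and 30% of the subpallial list, where 9.07% of all genes were called higher. eomesa (chromosome 19, 860827 to 867071), also called Tbr2, a factor of pallial glutamatergic neurons and their precursors, had 350.4, 457 and 374 CPM in the exposed females and 324, 184 and 237 CPM in the exposed males, against 51.5, 19.5 and 33.1 CPM in the control females and 60.5, 119 and 62.6 CPM in the control males. Every exposed library was above every control, and the fold was larger in females (3.50) than in males (1.62), a difference that did not pass the test (interaction, edgeR adjusted p = 0.179). The shared log2 fold change was 2.56 ± 0.39 (edgeR adjusted p = 0.00135). bhlhe22, a basic helix-loop-helix factor of excitatory neurons, had 80.2 to 173 CPM (median 94.3) in the exposed libraries, against 17.8 to 67.5 CPM (median 32.5) in the controls and rose by 1.66 ± 0.28 (edgeR adjusted p = 0.00198). neurod6b, a differentiation factor of the same family, rose by 0.94 ± 0.22 (edgeR adjusted p = 0.0112). foxg1a, the forkhead factor of the telencephalon, had 58.3, 101 and 47.2 CPM in the exposed females and 48.9, 53.8 and 35.1 CPM in the exposed males, against 1.45, 0.629 and 3.73 CPM in the control females and 20.5, 35.2 and 9.86 CPM in the control males. The exposed libraries all lay at or above 35.1 CPM, while the control females were at or below 3.73 CPM and 1 control male reached 35.2 CPM, and its call (3.05 ± 0.85, edgeR adjusted p = 0.0285) was lost without control female replicates 1 or 3 or control male replicates 1 or 3 (edgeR adjusted p 0.0527 to 0.087). tbr1b, a factor of pallial glutamatergic neurons named after its value was seen, was also called (2.50). Its log2 fold change was 4.33 in females and 0.75 in males (interaction, edgeR adjusted p = 0.152). The exposed males had 24.8, 65.2 and 38.9 CPM and overlapped the control males, at 21.4, 35.1 and 20.1 CPM.

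Among subpallial factors, dlx1a (chromosome 9, 3388099 to 3390106), a homeobox gene of GABAergic interneurons, had 154, 104 and 112 CPM in the exposed females and 106, 106 and 91.5 CPM in the exposed males, against 43.5, 38.3 and 34.6 CPM in the control females and 42.5, 54.7 and 47.4 CPM in the control males. Groups did not overlap in either sex, and the log2 fold change was 1.37 ± 0.17 (edgeR adjusted p = 0.000738). sp9, a zinc finger factor of the same lineage, had 38.5 to 102 CPM (median 61.1) in the exposed libraries, against 11 to 29.8 CPM (median 13.1) in the controls and a change of 1.91 ± 0.32 (edgeR adjusted p = 0.0018). six3b had 15.2 to 51.2 CPM (median 22.2) in the exposed libraries, against 3.36 to 10.9 CPM (median 7.91) in the controls and a change of 1.98 ± 0.39 (edgeR adjusted p = 0.00472). lhx8a, a factor of cholinergic and GABAergic ventral neurons, was called at 2.52 ± 0.75 (edgeR adjusted p = 0.0347), and lost its call without exposed female replicates 1 or 2, control female replicates 1, 2 or 3 or control male replicate 3 (edgeR adjusted p 0.0518 to 0.0942). The lhx8a change was 4.34 in the females alone (edgeR adjusted p = 0.0467) and 0.76 in the males alone (edgeR adjusted p = 0.536). The count of pallial factors called fell to 3 without any 1 of control female replicates 1 or 3 or control male replicates 1 or 3. The count of subpallial factors was 3 without any 1 of the control females, exposed female replicate 1 or control male replicate 3. With the complexity covariate 2 pallial factors, eomesa (3.47, edgeR adjusted p = 0.031) and tbr1b, and 1 subpallial factor, six3b (2.99, edgeR adjusted p = 0.0359), passed. c1ql3b, a secreted synaptic organiser among the 15 largest rises, had 36.9 to 131 CPM (median 71.5) in the exposed libraries, against 8.13 to 31.8 CPM (median 17.6) in the controls and a change of 2.23 ± 0.37 (edgeR adjusted p = 0.00186). drd3, a dopamine receptor, was the 1 monoamine gene of 30 called (1.29 ± 0.32, edgeR adjusted p = 0.0138). The called share was 3.33% of that list, where 16.4% of all genes were called. Most of the list went the other way, with 24 of the 30 below 0 and a median of −0.47. drd3 passed with the covariate too (2.37, edgeR adjusted p = 0.0359), and the monoamine count was 2 without control female replicate 3 or control male replicate 2.

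Markers of other brain regions gave few calls. Of 24 hindbrain and cerebellar markers 1 was higher and 2 were lower, 12.5% in all where 16.4% of all genes were called. The median was 0.26 (−0.23 in females, 0.59 in males), with 14 members above 0 and 10 below. The 2 called lower were pvalb7 and ca8. pvalb7, a parvalbumin, had 23.3 to 65.6 CPM (median 35.5) in the exposed libraries, against 73.8 to 139.8 CPM (median 104) in the controls (−1.55 ± 0.25, edgeR adjusted p = 0.00151). ca8 had 11.3 to 61.7 CPM (median 28.4) in the exposed libraries, against 64.3 to 162 CPM (median 79.9) in the controls (−1.66 ± 0.39, edgeR adjusted p = 0.0119). Under the complexity covariate pvalb7 had −1.32 and ca8 −1.26, at edgeR adjusted p of 0.31 and 0.711. The one that rose was egr2b (1.76 ± 0.49, edgeR adjusted p = 0.0261), which is also an activity-regulated gene, and its call was lost without exposed female replicate 3 or control male replicates 1, 2 or 3 (edgeR adjusted p 0.0712 to 0.0753). The summed hindbrain level was 2146 to 4193 CPM in the exposed libraries, against 2685 to 5607 CPM in the controls, and the ranges overlap. Of 27 hypothalamic peptide genes 1 was called, pdyn, the prodynorphin gene (−1.60 ± 0.40, edgeR adjusted p = 0.0158). The hypothalamic count was 3 without control female replicate 2 or exposed female replicate 2 and 2 without exposed female replicate 3 or exposed male replicate 2. Of 6 pituitary hormone genes 0 were called, the smallest p being that of pomca (−1.05 ± 0.52, edgeR adjusted p = 0.192). At an unadjusted p under 0.05 the pituitary list held 0 genes in edgeR and limma-voom and 1 in DESeq2, with 0 called by each.

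Of the 38 gene lists, the cytosolic ribosomal proteins had the most rises. Of 81 cytosolic ribosomal protein genes 64 were called higher and 0 lower, and the median log2 fold change was 1.25 (0.87 in females, 1.65 in males). Their summed level was 96166 to 173375 CPM in the exposed libraries, against 35996 to 72798 CPM in the controls, so that every exposed library was above every control. All 64 were in the most abundant part of the 5, which holds 69 of the 81 and in which 29.9% of all genes were called higher. rpl26 (chromosome 14, 52563860 to 52568373), of the large subunit, had 3132, 2067 and 3254 CPM in the exposed females and 4291, 2874 and 3777 CPM in the exposed males, against 1374, 1219 and 1061 CPM in the control females and 742, 969 and 1054 CPM in the control males. The lowest exposed library was exposed female replicate 2, still above the highest control, and the log2 fold change was 1.60 ± 0.19 (edgeR adjusted p = 0.000738). rpl31 rose by 1.57 ± 0.18, rps26l by 1.44 ± 0.16 and rps10 by 1.41 ± 0.17 on the log2 scale (edgeR adjusted p = 0.000738 each). Leaving out single libraries gave 62 to 65 called. Given the covariate, edgeR called 0 of the 81, with a median of 0.83 and 59 at an unadjusted p under 0.05. The females alone gave 0 called and 63 at an unadjusted p under 0.05, and the males alone 65 called. In exposed female replicate 2 itself, 69 of the 81 lay above all controls. Ribosomal protein genes have processed copies elsewhere in many genomes, and how the authors' counting divided reads between such copies is not stated.

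Mitochondrial and proteasome genes were mixed. The called shares were 41.4% of the oxidative phosphorylation, 34.2% of the mitochondrial ribosomal and 32.1% of the proteasome list, beside 16.4% of all genes. Of 87 oxidative phosphorylation genes 30 were called higher and 6 lower (median 0.29), and all 30 were in the most abundant part. That part held 64 of the 87, and 29.9% of all genes in it were called higher. cox5ab, a subunit of complex IV, had 262 to 379 CPM (median 347) in the exposed libraries, against 126 to 196 CPM (median 165) in the controls (1.02 ± 0.14, edgeR adjusted p = 0.000962). cox6a1, of the same complex, rose by 0.87 ± 0.13, and the complex I genes ndufa13 and ndufb8 rose by 0.99 ± 0.15 and 0.99 ± 0.15. The 6 called lower were uqcr10 (−0.95), cox4i2 (−0.65), atp5md (−1.71), ndufb6 (−0.81), ndufb11 (−0.63) and atp5mc3a (−0.48), which were named after their values were seen and lie in complexes I, III, IV and V. Of 73 mitochondrial ribosomal protein genes 18 were higher and 7 lower (median 0.22), led by mrps28 (42.2 to 68.2 CPM (median 58.2) in the exposed libraries, against 12.5 to 24 CPM (median 21.4) in the controls; 1.54 ± 0.20, edgeR adjusted p = 0.000798), with mrpl39 (1.38), mrpl20 (1.2) and mrpl37 (0.92). Of 53 proteasome genes 14 were higher and 3 lower (median 0.21). The most abundant part held 14 of the 18 mitochondrial ribosomal genes called higher and 13 of the 14 proteasome genes. The catalytic subunit gene psmb6 had 259 to 372 CPM (median 326) in the exposed libraries, against 119 to 202 CPM (median 173) in the controls (0.96 ± 0.15, edgeR adjusted p = 0.00146), and psma1 (1.08), psmd1 (0.90) and the assembly factor psmg1 (1.08) rose with it. Under the complexity covariate edgeR called 0 members of each of these 3 lists, and 31, 11 and 10 had an unadjusted p under 0.05.

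Of 106 splicing factors 27 were called higher and 9 lower (median 0.23). The most abundant part of the 5, in which 29.9% of all genes were called higher, held 59 of the 106 and 23 of the 27. The total of 36 was 22 without control male replicate 1 and 23 without either control male replicate 2 or exposed female replicate 1. snrpb, a core protein of the spliceosomal particles, had 730.5 to 1273 CPM (median 946) in the exposed libraries, against 239.6 to 542 CPM (median 393) in the controls (1.37 ± 0.21, edgeR adjusted p = 0.00125), and srsf9 (1.0), sf3a2 (1.09) and sf3b2 (1.25) rose too. Of 42 replication and proliferation genes 7 were higher and 1 lower (median 0.31), 19.05% in all where 16.4% of all genes were called. aurkb, a mitotic kinase, had 19.7 to 38.8 CPM (median 31) in the exposed libraries, against 2.59 to 16.7 CPM (median 5.04) in the controls (2.2 ± 0.41, edgeR adjusted p = 0.00345). dut, which keeps uracil out of DNA, rose by 1.27 ± 0.21, hmgb2b by 1.17 ± 0.22 and the tubulin gene tuba8l4 by 0.89 ± 0.17. ccnd1, a cyclin chosen after its value was seen, was the member called lower (−1.08). Under the covariate edgeR called 0 members of either list, and 18 splicing and 6 replication genes had an unadjusted p under 0.05.

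Most immediate early genes that changed were higher. Of 25 tested, 8 were called higher and 1 lower, and the median log2 fold change was 0.24 in females and 1.81 in males. Calls made up 36% of the list, where 16.4% of all genes were called. junba (chromosome 1, 51732979 to 51734508), a subunit of the AP-1 transcription factor, had 103, 107 and 214 CPM in the exposed females and 640.4, 274 and 363 CPM in the exposed males, against 40.4, 54.3 and 42.7 CPM in the control females and 33, 29.6 and 28.5 CPM in the control males. All exposed libraries were above all controls, with 1.63 in females, 3.81 in males and 2.72 ± 0.42 shared (edgeR adjusted p = 0.00146; interaction, edgeR adjusted p = 0.152). dusp2, a phosphatase that shuts off MAP kinases, had 6.5 to 25.3 CPM (median 19.5) in the exposed libraries, against 2.31 to 7.55 CPM (median 4.84) in the controls (1.85 ± 0.33, edgeR adjusted p = 0.00254). egr2a rose by 1.3 ± 0.27 (edgeR adjusted p = 0.00557). The member that fell was dusp6, another MAP kinase phosphatase, with 22 to 96.5 CPM (median 47.5) in the exposed libraries, against 92.4 to 121 CPM (median 99.8) in the controls (−1.04 ± 0.23, edgeR adjusted p = 0.00882). Counts were 6 to 12 when single libraries were left out. With the complexity covariate edgeR called 0, with 2 at an unadjusted p under 0.05.

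Chaperone and stress genes changed in both directions. Of 33 heat shock and chaperone genes 7 were higher and 3 lower (median 0.10), 30.3% in all where 16.4% of all genes were called. hsp90ab1, the constitutive cytosolic Hsp90, had 5829, 5158 and 5864 CPM in the exposed females and 6126, 6655 and 7906 CPM in the exposed males, against 4193, 3688 and 3588 CPM in the control females and 3544, 4025 and 3895 CPM in the control males. The groups did not overlap, and the change was 0.70 ± 0.12 (edgeR adjusted p = 0.0017). hsp70.1, an inducible Hsp70, had 15.3, 15.5 and 34.1 CPM in the exposed females and 129, 19.5 and 33.6 CPM in the exposed males, against 3.08, 7.66 and 7.25 CPM in the control females and 3.75, 3.92 and 6.29 CPM in the control males. Exposed male replicate 1 stood far above the other exposed libraries, which were still all above the controls (2.78 ± 0.54, edgeR adjusted p = 0.00413). hsp70.2 had 21.2 to 261 CPM (median 49.6) in the exposed libraries, against 4.21 to 19.7 CPM (median 9.38) in the controls (2.93 ± 0.69, edgeR adjusted p = 0.0131). The Hsp70 genes are near-identical copies, and their reads can be shared. hsp90aa1.2 rose by 0.77 ± 0.15, and canx, the calnexin gene of the endoplasmic reticulum, fell with a change of −0.93 ± 0.20 (edgeR adjusted p = 0.00711). With exposed female replicate 2 as the only exposed library canx had −0.09, hsp90ab1 0.44, hsp90aa1.2 0.45, hsp70.1 1.38 and hsp70.2 0.69. Of 20 integrated stress response genes 3 were higher and 2 lower, 25% in all. ddit3, which encodes the factor Chop, had 959.7, 638 and 835 CPM in the exposed females and 1359, 1235 and 1179.6 CPM in the exposed males, against 492, 669 and 509 CPM in the control females and 222, 311 and 232 CPM in the control males. The exposed and control females overlapped and the males did not (1.42 ± 0.29, edgeR adjusted p = 0.00532). atf4a, the central factor of the pathway, had 521 to 1309 CPM (median 869) in the exposed libraries, against 259 to 515 CPM (median 373) in the controls (1.13 ± 0.24, edgeR adjusted p = 0.00569). cebpg (−0.93 ± 0.16) and slc3a2b, an amino acid transporter subunit (−0.91 ± 0.19), fell. In the fit with exposed female replicate 2 alone, ddit3 had 0.21, atf4a 0.18, cebpg −0.55 and slc3a2b −0.27. Of 36 p53 targets and apoptosis genes 3 were higher and 5 lower, 22.2% in all. mcl1a, an inhibitor of apoptosis, rose by 1.47 ± 0.21 (edgeR adjusted p = 0.00101), bcl2l10 rose by 0.71 ± 0.16, and sesn1 (−0.95 ± 0.18) and bcl2l1 (−0.85 ± 0.18) fell. The count of 8 ran from 4 to 9 when single libraries were left out, being 5 or fewer without control female replicates 1 or 3, exposed female replicates 1 or 3, control male replicates 1 or 3, or exposed male replicates 2 or 3.

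Of 29 synaptic vesicle release genes 7 were lower and 0 higher, 24.1% of the list where 7.34% of all genes were called lower. The median log2 fold change was −0.44, with −0.12 in females and −0.82 in males, and their summed level was 10498 to 11974 CPM in the exposed libraries, against 11824 to 15487 CPM in the controls. syn2a, a synapsin that tethers vesicles, had 306, 465 and 247 CPM in the exposed females and 274, 253 and 212 CPM in the exposed males, against 609, 697 and 543 CPM in the control females and 583, 488 and 461 CPM in the control males. Exposed female replicate 2 had the highest exposed level and overlapped the male controls (−0.96 ± 0.16, edgeR adjusted p = 0.0017). syt1a, the calcium sensor of release, had 702 to 1488 CPM (median 986) in the exposed libraries, against 1477 to 2143 CPM (median 1839) in the controls (−0.87 ± 0.14, edgeR adjusted p = 0.00164). syn1 had 67.9 to 145 CPM (median 81.8) in the exposed libraries, against 184 to 255 CPM (median 201) in the controls (−1.23 ± 0.19, edgeR adjusted p = 0.00121). napba, which takes apart spent fusion complexes, had 11.6 to 26.8 CPM (median 14.5) in the exposed libraries, against 27 to 139 CPM (median 62.1) in the controls (−1.98 ± 0.36, edgeR adjusted p = 0.00289). The list count was 12 without control female replicate 2 and 14 without exposed female replicate 2. With exposed female replicate 2 as the only exposed library syn2a had −0.40, syt1a −0.38, syn1 −0.51 and napba −0.64. Under the complexity covariate these genes had −0.55, −0.46, −0.81 and −0.87, at edgeR adjusted p of 0.341, 0.374, 0.265 and 0.567. Of 31 voltage-gated channel genes 5 were lower and 0 higher (median −0.59, with −0.08 in females and −0.83 in males). These were 16.1% of the list, where 7.34% of all genes were called lower and 16.4% in either direction. They were the sodium channel genes scn1lab (−0.78 ± 0.15), scn8aa (−0.58 ± 0.15), scn2b (−1.27 ± 0.24), scn1bb (−0.92 ± 0.27) and scn8ab (−0.67, named after its value was seen). The scn1bb call was lost without any 1 library other than exposed female replicates 2 and 3, exposed male replicates 1 and 2 and control female replicate 2 (edgeR adjusted p 0.0586 to 0.0741). That count was 9 without control female replicate 2 and 3 without exposed female replicate 1, control female replicate 3 or any 1 control male.

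Transmitter systems had small numbers of calls, with shares on both sides of the 16.4% of all genes. Calls made up 18.2% of the GABA and glycine list and 18.2% of the cholinergic list. All of these were lower, where 7.34% of all genes were called lower. Of 22 GABA and glycine genes 4 were lower and 0 higher (median −0.48, with −0.30 in females and −1.05 in males). gad2, which makes GABA, had 141, 199 and 112 CPM in the exposed females and 72, 152 and 78.5 CPM in the exposed males, against 175, 208 and 166 CPM in the control females and 736, 482 and 434 CPM in the control males. Its fall was larger in males (−2.45) than in females (−0.28), and its call (edgeR adjusted p = 0.0328) was lost without any 1 library other than exposed female replicates 1 and 2 and control female replicates 1, 2 and 3 (edgeR adjusted p 0.0572 to 0.0803). With exposed female replicate 2 alone its change was 0.13. The receptor subunit gene gabra4 (−1.0 ± 0.28) was lost without exposed female replicate 1, exposed male replicates 1 or 2, control female replicate 3 or control male replicates 1 or 2 (edgeR adjusted p 0.0504 to 0.0675), and gabrb2a (−0.47 ± 0.13) without exposed female replicate 1 or control male replicate 3 (edgeR adjusted p 0.0516 to 0.0521). Without control male replicates 1 or 3 or exposed male replicate 2 the count was 2, and without control female replicate 2 it was 7. Of 32 glutamate genes 2 were lower and 1 higher, below the background share. They were the receptors grm2a (−0.54 ± 0.16) and grm8a (0.49 ± 0.16) and the vesicular transporter slc17a6b (−1.36 ± 0.43). Their edgeR adjusted p were 0.0341, 0.0485 and 0.0463, and the count of 3 fell to 0 without any 1 control male or exposed male replicate 2, fell to 1 without control female replicates 1 or 3, exposed female replicate 1 or exposed male replicates 1 or 3, and was 6 without control female replicate 2. The slc17a6b change was 0.16 with the complexity covariate and 0.14 with exposed female replicate 2 alone. ache, which breaks down acetylcholine, had 33 to 75.5 CPM (median 50) in the exposed libraries, against 57.3 to 216 CPM (median 105) in the controls (−1.09 ± 0.23, edgeR adjusted p = 0.00565). The other cholinergic gene called of 11, the receptor gene chrm5b, was at 0 in all exposed libraries and at 0 to 1.27 CPM in the controls, under the floor set by 3 times the rare-gene median, and is given no fold. Its call was lost without control female replicates 1 or 3 or control male replicates 1, 2 or 3 (edgeR adjusted p 0.0524 to 0.0682). Of 31 postsynaptic and adhesion genes 3 were lower and 1 higher, 12.9% in all and under the 16.4% of all genes. cbln2a, a secreted organiser of synapses, had 11.5 to 24.6 CPM (median 15.7) in the exposed libraries, against 33.6 to 107 CPM (median 58.8) in the controls (−1.99 ± 0.29, edgeR adjusted p = 0.00114), nlgn4xa had a change of −0.88 ± 0.21 (edgeR adjusted p = 0.0112), and the postsynaptic count of 4 was 2 without exposed female replicate 1, control female replicate 3, exposed male replicate 1 or any 1 control male. The call of camk2b1, a kinase subunit (−0.68), was lost without any 1 library other than exposed female replicate 2 and control female replicates 1 and 2 (edgeR adjusted p 0.0721 to 0.107), and that of the adhesion gene nrxn3b (0.54) without any 1 library other than exposed female replicate 3 and exposed male replicates 2 and 3 (edgeR adjusted p 0.064 to 0.108). With exposed female replicate 2 alone the camk2b1 change was 0.25.

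Glial genes moved both ways. Of 27 radial glia and astrocyte-like genes 7 were higher and 4 lower (median 0.04), 40.7% in all where 16.4% of all genes were called. her6, a target of Notch signalling, had 36.8 to 54.8 CPM (median 50.8) in the exposed libraries, against 15.8 to 28.2 CPM (median 23.2) in the controls (1.13 ± 0.17, edgeR adjusted p = 0.00115), and id1 had 534 to 719 CPM (median 641) in the exposed libraries, against 207 to 462 CPM (median 338) in the controls (0.91 ± 0.17, edgeR adjusted p = 0.00325). Lower were mfge8a, a secreted phagocytosis bridge, with 14.8 to 39.6 CPM (median 23.4) in the exposed libraries, against 54.7 to 79.9 CPM (median 63.5) in the controls (−1.41 ± 0.22, edgeR adjusted p = 0.00146), and s100b, a calcium-binding protein gene (−0.91 ± 0.16, edgeR adjusted p = 0.00278). Their summed level, 5721 to 6671 CPM in the exposed libraries, against 5693 to 7692 CPM in the controls, overlapped. Of 18 oligodendrocyte genes 3 were lower and 1 higher, 22.2% in all. cd59 (−1.56 ± 0.31), mag, a myelin glycoprotein (−0.81 ± 0.21), and mpz, the main myelin protein gene of fish (−1.1 ± 0.30), fell, and olig2, the lineage factor, rose (0.89 ± 0.27, edgeR adjusted p = 0.0377). With exposed female replicate 2 as the only exposed library cd59 had −0.42, mag −0.56, mpz −0.61 and olig2 0.07. The call of mpz was lost without exposed female replicate 1, exposed male replicate 1, control female replicate 1 or control male replicate 1 (edgeR adjusted p 0.0512 to 0.0585), and that of olig2 without any 1 library other than exposed female replicate 2, exposed male replicate 1 and control female replicate 1 (edgeR adjusted p 0.051 to 0.097); the count of 4 was 2 without exposed female replicate 1 or control male replicate 1. Of 25 microglia and macrophage genes 4 were higher and 1 lower (median 0.25), 20% in all. lcp1, an actin bundler of leukocytes, had 71.5 to 165 CPM (median 110) in the exposed libraries, against 28.1 to 57.5 CPM (median 36.6) in the controls (1.51 ± 0.24, edgeR adjusted p = 0.00146), and cd74a, the invariant chain of antigen presentation, rose by 0.84 ± 0.21 (edgeR adjusted p = 0.0143). In the fit with exposed female replicate 2 as the only exposed library, lcp1 had 0.59 and cd74a 0.002. The defining microglial markers csf1ra, mpeg1.1 and p2ry12 had 0 to 4.61, 1.42 to 4.99 and 0 to 1.43 CPM in the exposed libraries, and 2.35 to 6.77, 1.84 to 3.26 and 0.409 to 2.42 CPM in the controls. Of 37 interferon and inflammation genes 4 were higher and 1 lower, 13.5% in all where 16.4% of all genes were called. psmb10, an immunoproteasome subunit, rose by 1.1 ± 0.21 (edgeR adjusted p = 0.00384). socs3a, an inhibitor of cytokine signalling, had 16.4, 27.1 and 19.7 CPM in the exposed females and 134, 125 and 107 CPM in the exposed males, against 13, 16.6 and 7.62 CPM in the control females and 4.68, 17.7 and 18.2 CPM in the control males, so that the males and not the females were separated (1.98 ± 0.49, edgeR adjusted p = 0.0151; lost without control male replicates 2 or 3 (edgeR adjusted p 0.0505 to 0.0535)). The interferon count of 5 was 1 without control male replicate 2, 2 without control male replicate 3 and 3 without exposed female replicate 1, control male replicate 1 or exposed male replicates 1 or 2. The microglial count of 5 was 2 without exposed female replicate 1 or control male replicate 1 and 3 without control male replicates 2 or 3 or exposed male replicate 2.

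Detoxification and antioxidant genes, both directions together, had shares of calls under the 16.4% of all genes. Of 49 glutathione and antioxidant genes 3 were higher and 1 lower. gpx4b, which reduces lipid peroxides, had 600.1 to 883 CPM (median 709) in the exposed libraries, against 296 to 568 CPM (median 463) in the controls (0.72 ± 0.15, edgeR adjusted p = 0.00567), and keap1b, the inhibitor of Nrf2, rose by 0.71 ± 0.15 (edgeR adjusted p = 0.00673). cat (0.35) and prdx1 (−0.91) were called with all libraries, at edgeR adjusted p of 0.0391 and 0.0456. The call of cat was lost without any 1 library other than exposed male replicate 3 (edgeR adjusted p 0.0516 to 0.103), and that of prdx1 without any 1 library other than exposed female replicate 1, exposed male replicate 2 and control male replicate 2 (edgeR adjusted p 0.055 to 0.117). The count of 4 was 2 without control female replicate 3, exposed female replicate 3, control male replicate 1 or exposed male replicate 1. Of 34 P450 and conjugation genes 1 was higher, cyp20a1 (0.70 ± 0.17, edgeR adjusted p = 0.0122), and 3 were lower (median −0.81, and −0.80 without the member at 0 in all exposed libraries). sult4a1, a brain sulfotransferase, had 99.3 to 129.6 CPM (median 113) in the exposed libraries, against 137 to 237 CPM (median 189) in the controls (−0.73 ± 0.13, edgeR adjusted p = 0.00294). cyp26b1, which clears retinoic acid, had 39.4 to 84.6 CPM (median 54.5) in the exposed libraries, against 79.4 to 148 CPM (median 107) in the controls (−0.86 ± 0.22, edgeR adjusted p = 0.0157). The third, cyp2ad2, was at 0 in all exposed libraries and at 0.263 to 1.94 CPM in the controls, under the floor. The P450 count was 7 without exposed female replicate 2.

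Lipid and hormone genes were called in both directions. Of 31 cholesterol synthesis genes 2 were higher and 5 lower, 22.6% in all where 16.4% of all genes were called. scdb, a fatty acid desaturase, had 42, 58.8 and 23.2 CPM in the exposed females and 18.4, 57.7 and 26.2 CPM in the exposed males, against 85.1, 48.7 and 77.5 CPM in the control females and 216, 176 and 179.6 CPM in the control males. The males were separated and the females overlapped (−1.63 ± 0.39, edgeR adjusted p = 0.0122). srebf2, the master factor of the pathway, rose by 0.71 ± 0.13 (edgeR adjusted p = 0.00252), while srebf1 had a change of −0.86 ± 0.24 (edgeR adjusted p = 0.0277), lost without control female replicates 1 or 3 or control male replicates 1, 2 or 3 (edgeR adjusted p 0.0511 to 0.0676). tm7sf2 (−2.03) was lost without exposed female replicates 1 or 3, control female replicates 2 or 3 or control male replicates 1 or 2 (edgeR adjusted p 0.0554 to 0.0706), and the count of 7 was 2 without control female replicate 3 or control male replicates 1 or 2, 3 without exposed female replicate 1 or control male replicate 3, and 4 without control female replicate 1 or exposed female replicate 3. Of 21 glucocorticoid axis genes 3 were lower and 0 higher (median −0.55). These were 14.3% of the list, where 7.34% of all genes were called lower and 16.4% in either direction. foxo3b, a forkhead factor, had 17 to 39.4 CPM (median 24.1) in the exposed libraries, against 29.8 to 108 CPM (median 61.6) in the controls (−1.38 ± 0.22, edgeR adjusted p = 0.00146), and foxo3a had 55 to 93.5 CPM (median 77.9) in the exposed libraries, against 73 to 235 CPM (median 146) in the controls (−0.96 ± 0.21, edgeR adjusted p = 0.00728). fkbp5, a glucocorticoid-induced chaperone partner, had 518, 95.9 and 163 CPM in the exposed females and 35.6, 37.4 and 181 CPM in the exposed males, against 516, 473 and 486 CPM in the control females and 584, 629 and 362 CPM in the control males. Exposed female replicate 1 was at the control level and the other exposed libraries were below every control, and the call (−1.78 ± 0.56, edgeR adjusted p = 0.0485) was lost without any 1 of the 11 libraries other than exposed female replicate 1 (edgeR adjusted p 0.0572 to 0.106). Of 23 sex steroid and thyroid genes 2 were higher and 1 lower, 13.0% in all and under the 16.4% of all genes. dio3a, which inactivates thyroid hormone, had 52.5, 39 and 36.9 CPM in the exposed females and 71.9, 43.8 and 99.5 CPM in the exposed males, against 17, 24.7 and 11.3 CPM in the control females and 8.08, 12.9 and 18.7 CPM in the control males. All exposed libraries were above all controls (1.86 ± 0.32, edgeR adjusted p = 0.00219). dio2, which activates the hormone, had 10.2 to 43.3 CPM (median 19) in the exposed libraries, against 18 to 95.9 CPM (median 36.9) in the controls (−1.03 ± 0.23, edgeR adjusted p = 0.00833). hsd17b4, a peroxisomal enzyme, had 235 to 359.7 CPM (median 299.9) in the exposed libraries, against 93.8 to 206 CPM (median 141) in the controls (1.05 ± 0.15, edgeR adjusted p = 0.000962).

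The largest rises outside these lists were led by traf4b, a signalling adaptor of the TRAF family (chromosome 21, 39005909 to 39024739), which had 14.5, 21.9 and 21.6 CPM in the exposed females and 20.7, 7.97 and 16.2 CPM in the exposed males, against 1.27, 0.21 and 0.932 CPM in the control females and 1.88, 2.43 and 0.503 CPM in the control males. Its log2 fold change was 3.88 ± 0.56 (edgeR adjusted p = 0.0011). Every exposed library was above every control, which the rule for naming the largest rises required. Also among the 15 largest rises were prkd4 (2.50 ± 0.54), ved (2.2 ± 0.47), the adaptor protein gene ap1m2 (1.99 ± 0.45) and srl (2.33 ± 0.62), whose call was lost without control male replicates 1 or 3 (edgeR adjusted p 0.0538 to 0.0561). Of the 15 largest falls, 11 were at 0 in at least 1 exposed library, and a fitted fold of such a gene depends on the prior count. 3 of them, mhc1zha, s100a1 and cyp3c4, were at 0 in all 6 exposed libraries. mhc1zha, a class I histocompatibility gene, had 1.42 to 17.6 CPM (median 2.4) in the controls, where the mean floor set by the exposed libraries' rare-gene medians was 4.07 CPM. The controls' median was under that floor for mhc1zha, and the mean for s100a1 and cyp3c4, and none of the 3 is given a fold. In all, 49 genes called lower were at 0 in all 6 exposed libraries, and for 48 of them the control mean was under the floor. The largest falls with no 0 were rhobtb4, nkain2, git2b and mapre3a. nkain2, a partner of the sodium pump, had 1.31 to 7.52 CPM (median 1.92) in the exposed libraries, against 9.53 to 19.3 CPM (median 15) in the controls (−2.51 ± 0.48, edgeR adjusted p = 0.00366). Its exposed median was under the mean floor of 4.07 CPM, so the size of its fold is uncertain. git2b and mapre3a, a microtubule end-binding protein gene, had changes of −2.32 ± 0.55 and −2.63 ± 0.75, lost without control male replicate 1 (edgeR adjusted p = 0.0532) and without exposed male replicates 1 or 2 or control male replicates 1, 2 or 3 (edgeR adjusted p 0.0503 to 0.0716). mapre3a had 0.20 with the complexity covariate.

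Markers of tissues that surround or lie beside the brain were counted beside these results, and their part in them was not tested. The called shares were 20.8% of the muscle list, 20% of the skin list and 13.0% of the vessel list, beside 16.4% of all genes. Of 17 blood genes 0 were called in edgeR, with nt5c2l1 the smallest p (1.15 ± 0.42, edgeR adjusted p = 0.0832), and their sum was 2036 to 12797 CPM in the exposed libraries, against 983 to 7781 CPM in the controls. At an unadjusted p under 0.05 edgeR had 3 blood genes, and DESeq2 called 3 and limma-voom 0. edgeR called 1 without control male replicate 1. Of 24 skeletal muscle genes 5 were higher and 0 lower (median 0.86), and their sum was 726 to 946 CPM in the exposed libraries, against 596 to 944 CPM in the controls. actc1b, a cardiac and muscle actin, had 6.8 to 49.4 CPM (median 12.5) in the exposed libraries, against 2.1 to 5.62 CPM (median 4.07) in the controls (2.11 ± 0.46, edgeR adjusted p = 0.00764), eno3 rose by 1.13 ± 0.17 (edgeR adjusted p = 0.00125), and ckmb, the muscle creatine kinase, had 2.39 to 18.9 CPM (median 5.56) in the exposed libraries, against 0.081 to 1.13 CPM (median 0.817) in the controls (3.19 ± 0.76, edgeR adjusted p = 0.012). The control median of ckmb was under the mean floor of the control libraries (0.905 CPM), so the size of its fold is uncertain. The muscle count was 3 without control female replicate 3 or control male replicates 1 or 3. Of 25 skin and connective tissue genes 4 were higher and 1 lower (median 1.23), and their sum was 499 to 1826 CPM in the exposed libraries, against 319.9 to 562 CPM in the controls. The collagen gene col1a1b had 352, 164 and 169 CPM in the exposed females and 353, 310 and 253 CPM in the exposed males, against 79, 109 and 118 CPM in the control females and 42.1, 55.8 and 69.7 CPM in the control males. All exposed libraries were above all controls (1.81 ± 0.28, edgeR adjusted p = 0.0014). col11a1a rose by 1.73 ± 0.37 (edgeR adjusted p = 0.00698). The keratin gene krt91 had 987, 8.77 and 104 CPM in the exposed females and 133, 128 and 58.5 CPM in the exposed males, against 8.2, 43 and 7.98 CPM in the control females and 6.32, 8.69 and 9.36 CPM in the control males. It was called (3.96 ± 0.91, edgeR adjusted p = 0.0133) although exposed female replicate 2 was at the control level, and it had a change of −1.16 with that library alone. The skin count was 3 without control female replicate 3 or control male replicates 1 or 3, and 8 without control female replicate 1. Of 23 vessel genes 3 were higher: tagln, of smooth muscle, had 23.7 to 36.8 CPM (median 28.5) in the exposed libraries, against 4.3 to 9.56 CPM (median 7.26) in the controls (2.11 ± 0.26, edgeR adjusted p = 0.000738), tek, the angiopoietin receptor, had 217 to 634 CPM (median 373) in the exposed libraries, against 90.9 to 187 CPM (median 153) in the controls (1.45 ± 0.26, edgeR adjusted p = 0.00281), and acta2 rose by 1.05 ± 0.24 (edgeR adjusted p = 0.0102). The vessel sum, 550 to 922 CPM in the exposed libraries, against 291 to 445 CPM in the controls, did not overlap, and the count was 5 without control female replicate 2. Of 30 pineal and photoreceptor genes 2 were higher, below the background share. exorh, the opsin of the pineal, had 164, 33.9 and 155 CPM in the exposed females and 76.8, 34.6 and 19.1 CPM in the exposed males, against 27.2, 46.6 and 25.1 CPM in the control females and 17.9, 10.7 and 11.7 CPM in the control males, with much variation within each exposed group (1.77 ± 0.40, edgeR adjusted p = 0.00855). rbp4l, a retinol-binding protein gene, had 2.57 to 44.5 CPM (median 7.45) in the exposed libraries, against 1.46 to 5.45 CPM (median 2.21) in the controls (2.34 ± 0.61, edgeR adjusted p = 0.0189). With exposed female replicate 2 as the only exposed library exorh had 0.05 and rbp4l 0.21.

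**Figure D5:**
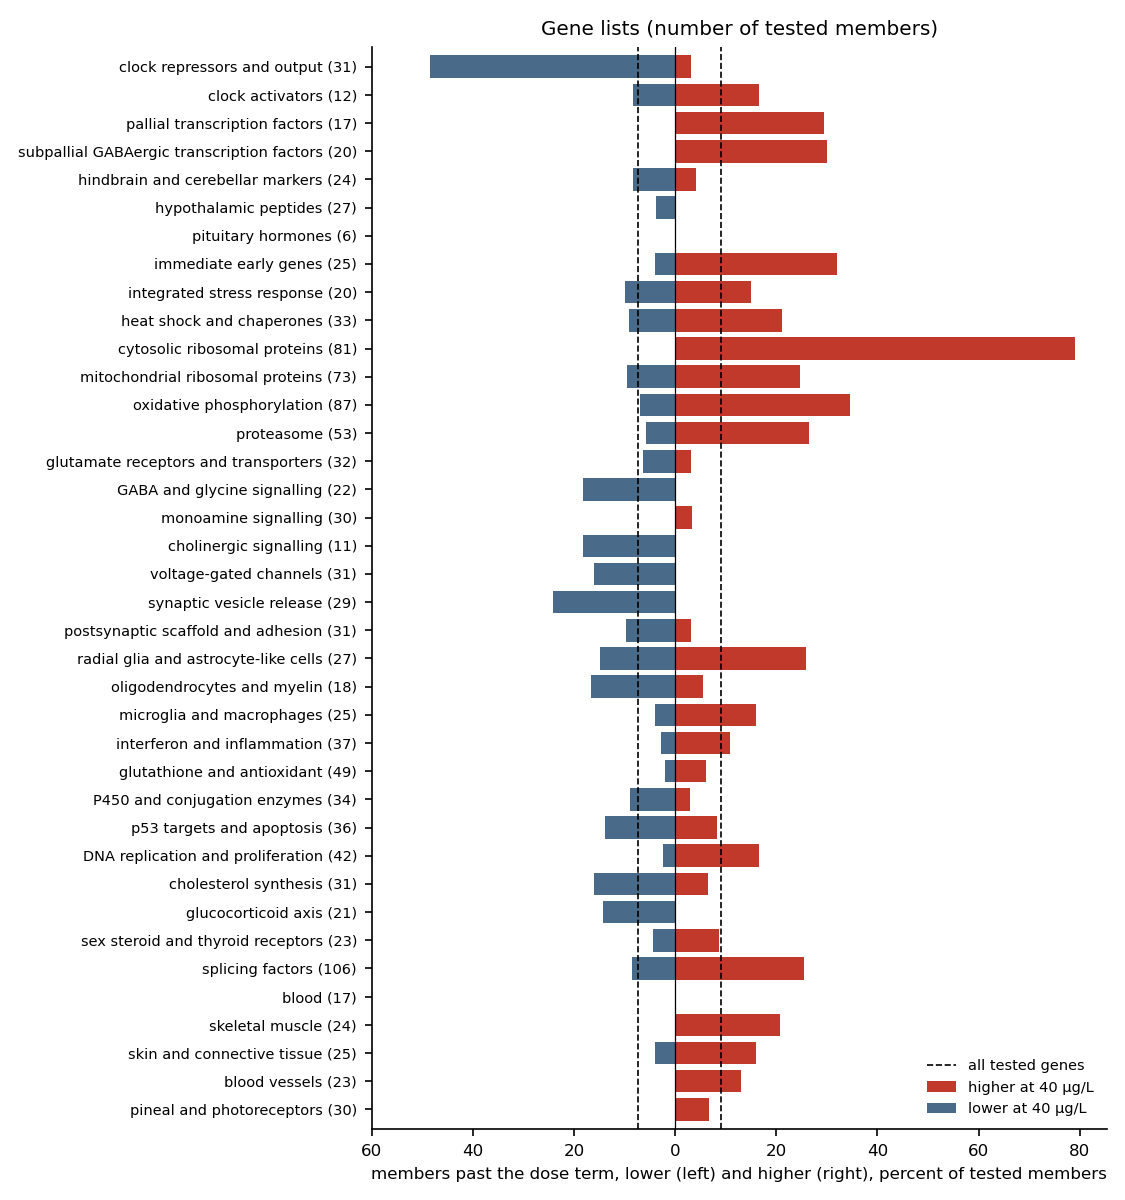
Share of tested members called for the dose term in each of 38 gene lists, lower at 40 µg/L to the left and higher to the right; dashed lines mark the shares over all tested genes, 9.07% higher and 7.34% lower. The cytosolic ribosomal proteins (64 of 81 higher) and the clock repressors and output genes (15 of 31 lower) extend farthest.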

How the data were processed

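The authors deposited counts per gene and library, as whole numbers. Per the submitters' processing notes, the tools were DESeq2, FastQC, Picard, STAR and StringTie, with neither version nor role, and no genome build or annotation is named there. Poly(A) RNA was selected with oligo-dT beads and a TruSeq V2 kit, per the labels' protocols, which do not mention strand, so reads of overlapping or antisense genes cannot be told apart. The table holding both sexes was used, with 0 of its value columns left out, and the 3 libraries at 200 µg/L, from the other deposited table, entered the rare-gene measure and 1 alternative. Low counts are often multiples of 4, so 1 fragment may stand for several counts.

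The tests used edgeR 4.0.16 in R 4.3.3, with filterByExpr by the 4 groups, TMM factors, a robust quasi-likelihood fit of sex and dose in 12 libraries, and Benjamini-Hochberg adjustment over 13149 genes, called at an adjusted p under 0.05. The sex by dose interaction came from the same libraries. CPM are the deposited counts scaled with these factors. The approximate standard error of a log2 fold change is its size over the root of the F statistic. Library measures were compared with exact permutation tests over the 400 arrangements within sex. A gene at 0 in a whole group was set against a floor of 3 times the rare-gene median per library, which covers counting error only. The fit was tested on simulated counts.

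Named genes are the 15 largest rises and 15 largest falls among called genes whose groups did not overlap and whose mean reached 1 CPM in either group, the 10 smallest p, the called members of each list with the smallest p (at most 4), and the smallest p of a list with none. Not every gene so chosen is described. The comparison, the 38 lists and the alternatives were chosen with earlier results of these data known. Alternatives used DESeq2 1.42.0, limma 3.58.1 (voom), other scalings, filters and thresholds, the replicate block, other sets of libraries, the complexity covariate and each library left out. Counts divided by each library's rare-gene median were added after seeing the data.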

Additional observations from a re-analysis of the deposited data

Results flagged for a closer look

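Of 320 group values of 6 libraries tested, 30 had a highest or lowest library set apart from the other 5. Chance gives about 1 in 20 for 6 values from 1 normal distribution. The values here pool the sexes, and most are of genes named for their values, so 30 cannot be held against that rate. Among the library measures, those set apart were the rare-gene medians of exposed male replicate 3 (132) and control female replicate 2 (11).

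Exposed female replicate 2, the exposed library with a rare-gene median in the control range, stood apart 9 times. It was nearest to the controls of the exposed libraries for cry4 (124 CPM), ndufa13 (124 CPM), syn1 (145 CPM), syn2a (465 CPM), camk2b1 (388 CPM) and nkain2 (7.52 CPM). It had the 1 value above 0 among the exposed libraries for rab8a (0.121 CPM) and pcdh1g18 (0.485 CPM), both under the floor of that library (0.728 CPM). It was the farthest from the controls for foxg1a (101 CPM). Whether its complexity accounts for these values was not tested.

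Exposed female replicate 1 was highest for krt91 (987 CPM), dlx1a (154 CPM), fkbp5 (518 CPM) and ciarta (36.5 CPM), and exposed female replicate 3 for ap1m2 (48.3 CPM). Exposed male replicate 2 was highest for actc1b (49.4 CPM), ckmb (18.9 CPM) and nme2b.2 (109 CPM), all 3 genes of the muscle list. Exposed male replicate 1 was highest for hsp70.1 (129 CPM), and exposed male replicate 3 was highest for foxo3b (39.4 CPM) and lowest for sesn1 (35.1 CPM).

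Among controls, female replicate 3 was highest for aurkb (16.7 CPM), socs3b (16.9 CPM) and scn1lab (430 CPM), female replicate 2 for s100a1 (4.61 CPM) and krt91 (43.0 CPM), and female replicate 1 for neurod6b (144 CPM). Male replicate 3 was highest for ca8 (162 CPM) and male replicate 1 for scn2b (136 CPM).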

How the results depend on the processing

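The 2157 genes called for the dose term became 943 at an adjusted p under 0.01, 3268 with limma-voom (1378 higher and 1890 lower, where edgeR had 1192 and 965, with the median of all genes 0.19 below that of edgeR), 16 with the complexity covariate, 19 in females alone and 17 with exposed female replicate 2 as the only exposed library. Leaving out single libraries gave 1396 (without control male replicate 1) to 2734 (without exposed female replicate 2, the exposed library of control-like complexity). Median-of-ratios and upper-quartile scaling gave 2186 and 2216, DESeq2 3199, fits with no filter and with a filter of 1 CPM 2094 and 2197, and the rare-gene-scaled counts 2822. Whether the replicate numbers pair the samples cannot be told from these values. Same-numbered exposed and control libraries had correlations of −0.002, −0.056 and −0.035 in females and 0.033, 0.038 and 0.067 in males. Differently numbered libraries had −0.050 to 0.092 in females and −0.061 to 0.026 in males. With the number as a replicate block 1279 genes passed, 1233 of them among the 2157.

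The interaction term passed for 0 genes in edgeR, 457 with DESeq2, 1 with the replicate block, 3 with all 15 libraries, and 0 to 369 with single libraries left out, 369 without exposed male replicate 2. The rare-gene difference was 1.16 in females (exact permutation p = 0.4) and 2.83 in males (exact permutation p = 0.1, the smallest possible), and 1.61 to 2.42 with single libraries left out. The difference in genes at 0 was 562 in females (exact permutation p = 0.3), 2431 in males (exact permutation p = 0.1) and 112 when scaled to the library total (exact permutation p = 0.63).

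With the complexity covariate, which raised the median log2 fold change of all genes by 0.27, mapre3a, slc6a15 and slc17a6b turned to 0.20, 0.63 and 0.16, and with exposed female replicate 2 alone gad2, slc17a6b, camk2b1 and krt91 turned to 0.13, 0.14, 0.25 and −1.16. Of 154 named genes called, 119 kept their call without each single library. The causes were not tested. Low complexity limits what can be said of rare genes, since the floor of the exposed libraries reached 11.9 CPM.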

Other observations

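The 16 genes that passed with the complexity covariate were chosen after their values were seen, and 9 of them have not been described above. Of these, 6 were also called without the covariate. pyya, which encodes peptide YY, had 88.3, 130.3 and 38.7 CPM in the exposed females and 96.5, 117 and 59.8 CPM in the exposed males, against 21.8, 24.2 and 24.5 CPM in the control females and 44.7, 56 and 48.6 CPM in the control males. Exposed female replicate 3 overlapped the control males, and the log2 fold change was 1.37 ± 0.29 without the covariate (edgeR adjusted p = 0.00637) and 2.35 ± 0.27, edgeR adjusted p = 0.00833, with it. adrb1, a beta-adrenergic receptor gene, had 27.4, 6.92 and 24.6 CPM in the exposed females and 10.5, 23.1 and 45.6 CPM in the exposed males, against 66.7, 47.8 and 53.3 CPM in the control females and 49.6, 39.4 and 41.7 CPM in the control males. It missed the threshold without the covariate (−1.12 ± 0.37, edgeR adjusted p = 0.0548) and passed with it (−2.81 ± 0.43, edgeR adjusted p = 0.031). gsg1l, an auxiliary subunit gene of AMPA receptors, had 69.6 to 159 CPM (median 103) in the exposed libraries, against 31.5 to 84.4 CPM (median 70) in the controls, and passed with the covariate only (1.62 ± 0.26, edgeR adjusted p = 0.0359). npy8ar, a neuropeptide Y receptor gene, had 0 to 3.1 CPM (median 0.764) in the exposed libraries, against 0 to 1.67 CPM (median 0.466) in the controls. It was at 0 in 3 exposed and 3 control libraries and is given no fold.

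bhlhe23, a basic helix-loop-helix factor, had 91.5, 187 and 109 CPM in the exposed females and 140.4, 92.4 and 109.6 CPM in the exposed males, against 41.2, 48.8 and 41 CPM in the control females and 35.8, 50.8 and 45.9 CPM in the control males. All exposed libraries were above all controls (1.47 ± 0.19, edgeR adjusted p = 0.000798; with the covariate 1.83 ± 0.25, edgeR adjusted p = 0.0141). tshz1, a zinc finger factor, had 103, 97.9 and 116 CPM in the exposed females and 84.6, 79.5 and 108 CPM in the exposed males, against 242, 255 and 285 CPM in the control females and 211, 155 and 160.1 CPM in the control males. All exposed libraries were below all controls (−1.12 ± 0.14, edgeR adjusted p = 0.000738; with the covariate −1.45 ± 0.20, edgeR adjusted p = 0.0141). myca, a Myc factor gene, had 95.2 to 141 CPM (median 122) in the exposed libraries, against 45.5 to 63.7 CPM (median 55.5) in the controls, without overlap (1.14 ± 0.14, edgeR adjusted p = 0.000749; with the covariate 1.33 ± 0.21, edgeR adjusted p = 0.031). ets2, an ETS factor gene, had 107 to 322 CPM (median 161) in the exposed libraries, against 53.6 to 121 CPM (median 74.4) in the controls (1.2 ± 0.26, edgeR adjusted p = 0.00745). gem, a small GTPase gene, had 14.7 to 67.3 CPM (median 26.1) in the exposed libraries, against 2.04 to 21.1 CPM (median 6.22) in the controls (2.23 ± 0.55, edgeR adjusted p = 0.0138), with larger changes under the covariate, of 2.08 ± 0.26, edgeR adjusted p = 0.0115, for ets2 and 3.97 ± 0.52, edgeR adjusted p = 0.0141, for gem.

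With exposed female replicate 2 as the only exposed library 17 genes passed, and 6 of them also passed with the covariate, namely nr1d1, pyya, bhlhe23, rhobtb4, tbr1b and adrb1. All of these but adrb1 were called for the shared dose term. ctsba, a cathepsin B gene, passed in that fit, with 6.16 CPM there, against 90.9 to 178 CPM in the controls, while the other 5 exposed libraries had 71.1 to 191 CPM. Its shared change was 0.00 ± 0.55 (edgeR adjusted p = 0.997).

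At the threshold, zgc:162707 was the last gene inside at an edgeR adjusted p of 0.0498 and cd40 the first outside at 0.05001.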
